A study of Homo sapiens with 6 samples.

Results

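The 40 genes described here are the interferon-stimulated and double-stranded RNA sensing genes of SKOV3 cells, a human ovarian cancer cell line. They are the gene identifiers of the table that carry 1 of 40 listed symbols, with RIGI also sought under its older name DDX58. All 40 were found among 58825 identifiers. The cells had been given either a control siRNA without a target (the group NC) or an siRNA against EIF5A2, a translation factor gene (the group si-EIF5A2), each group has 3 libraries of sequenced RNA, and the time given for the series is 48 h. Every library came from cells that had received an siRNA, which is itself a short RNA duplex, by transient transfection with INTERFERin. No untransfected library was analysed here, so a response shared by both groups is not visible in this comparison. The paper lists only 1 siRNA duplex against EIF5A2. A response to the sequence of that duplex and an effect of EIF5A2 loss therefore cannot be told apart in these libraries. Nothing in the labels says that the libraries of a group came from separate cultures, so p-values measure the spread between these libraries, which may be technical.

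Double-stranded RNA in the cytoplasm or in endosomes is detected by helicases such as RIG-I and MDA5 and by the receptor TLR3, which signal through adaptors to IRF transcription factors and induce type I interferon. Secreted interferon binds IFNAR1 and IFNAR2, and Janus kinases then phosphorylate STAT proteins, among them STAT2, which join IRF9 and bind the interferon-stimulated response element in the promoters of antiviral genes. Many sensors of the pathway are themselves induced by interferon, and epithelial tumour cells hold the machinery without being immune cells.

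EIF5A2, the targeted gene, had 27.8, 29.8 and 29.9 CPM (counts relative to the library total after TMM scaling) in NC replicates 1 to 3 and 2.76, 4.04 and 4.27 CPM in si-EIF5A2 replicates 1 to 3. Every si-EIF5A2 library was far below every NC library, with a log2 fold change of -2.98 (SE 0.18, adjusted p = 1.60e-05, edgeR) and an exact permutation p of 0.10, 2-sided, the smallest that 3 against 3 libraries allow. The module did not move in 1 direction after EIF5A2 knockdown. IFI44, IFI44L, USP18 and RIGI were upregulated, and OAS1, OAS2, OAS3, STAT2, ISG20, IFITM2 and DDX60 were downregulated. The changes ran from 4.13-fold higher for IFI44 to 2.66-fold lower for OAS2. In RNA from many cells, fewer cells that express a gene and less of its RNA per cell cannot be told apart. Of 39 members with enough counts to be tested, 11 were called (28.2%), and the share of all genes called was 24.6%. A call means a fold change over 1.5 together with an adjusted p under 0.05, from the quasi-likelihood test of edgeR and the adjustment of Benjamini and Hochberg over 16208 genes. The 4 upregulated members were 10.3% of those tested, beside 11.1% of all genes, and the 7 downregulated members were 17.9%, beside 13.6%. These shares were near the background, so the module as a whole was not set apart by its number of changes. The median log2 fold change (si-EIF5A2 over NC) was -0.03 over the members, with quartiles of -0.52 and 0.25, and -0.01 over all genes, with quartiles of -0.50 and 0.41. With no limit on the fold change, 5 members rose and 8 fell at an adjusted p under 0.05 (edgeR), and 36.9% of all genes passed that limit. At an unadjusted p under 0.05 with more than a 2-fold change, the threshold in the study's methods, 5 members were left, IFI44, IFI44L, OAS2, STAT2 and HERC5, and 14.6% of all genes passed. The CPM values of both groups did not overlap in 18 of the 39 members (46.2%), as in 51.2% of all genes.

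**Figure D1:**
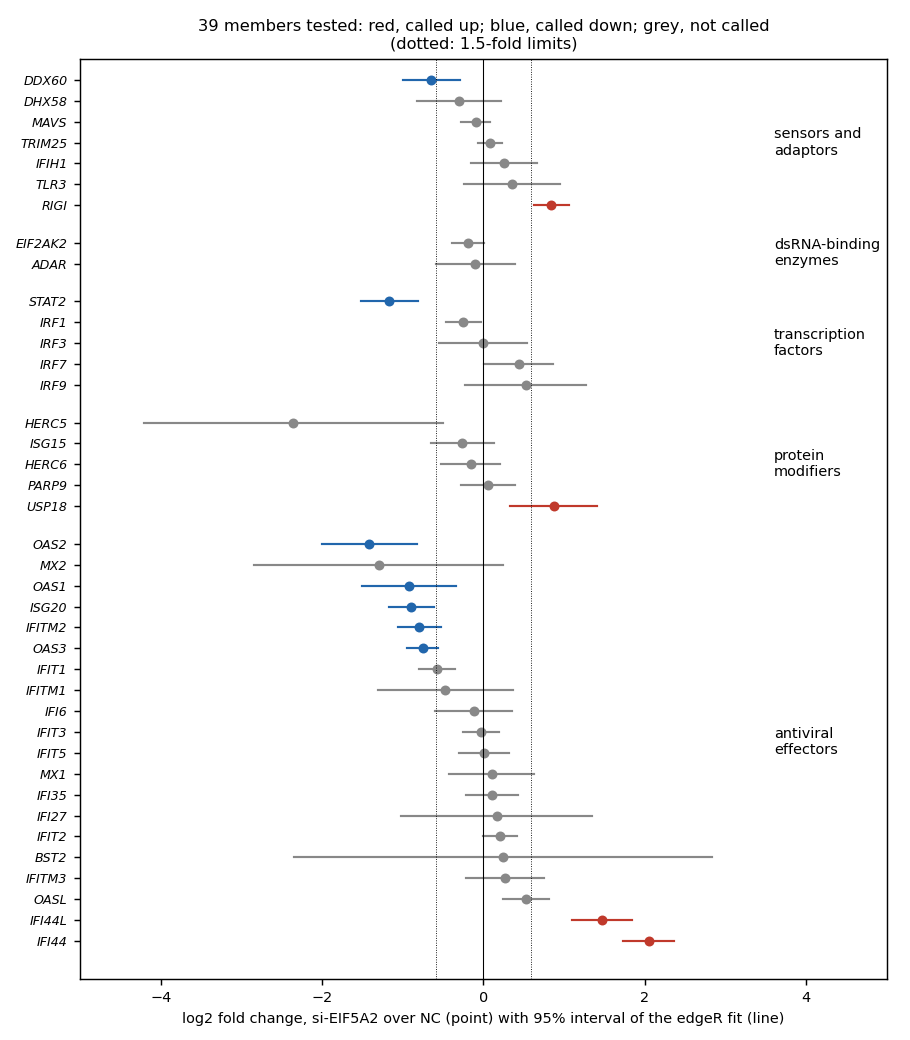
Log2 fold change of si-EIF5A2 over NC (horizontal axis) for the 39 members tested, grouped by role, with the 95% interval of the edgeR fit as a line and the 1.5-fold limits dotted. The 4 called up are red and the 7 called down are blue, the effectors hold members on both sides of 0, and the intervals of HERC5, MX2, IFI27 and BST2 are the widest.

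The table held 46900204 to 74142267 estimated counts per library, and low values piled up at multiples of about 3.69, so that 1 sequenced fragment appears to be worth several counts. Log2 CPM correlated across genes with r of 0.964 to 0.974 within groups and 0.929 to 0.938 between them. Where the levels of genes are compared, they are given per kb, which is the CPM divided by the kilobases of exon. Of the markers listed for the cell type, the keratins KRT8 (71.6 per kb over the 6 libraries) and KRT18 (126.6 per kb) and the ovarian lineage factor PAX8 (11.3 per kb) were well expressed. EPCAM, CDH1, WT1 and MSLN lay at 0.580, 0.0851, 0.657 and 0.257 per kb, and MUC16 was at 0 counts in all 6 libraries. ERBB2, which is known to be amplified in SKOV3, stood at 4.43 per kb, rank 6551 of 16176 genes. PTPRC and CD3E of leukocytes and CLEC4C and LILRA4 of plasmacytoid dendritic cells, a main source of interferon, were at 0 counts throughout. Among the other markers of leukocytes and endothelium, LYZ had 7 counts and VWF 67 counts over the 6 libraries, and PECAM1 had 149, 139 and 76 counts in NC and 0, 15 and 32 counts in si-EIF5A2, with groups that did not overlap and a log2 fold change of -2.56 that did not pass the test (adjusted p = 0.0941, edgeR). KRT8 (log2 fold change -0.69) and PAX8 (-0.80) were themselves called lower in si-EIF5A2 libraries, and their part in the results was not tested.

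Promoter windows of RefSeq (GRCh38.p14, from 250 bases before to 50 bases after the gene start) were found for 31 of the 40 members and were searched for the core of the interferon-stimulated response element, spelled GAAANNGAAA, or TTTCNNTTTC when read on the other strand. Some genes have more than 1 window, and a gene was counted if any of its windows held the core. This was so for 20 of the 31 members (64.5%) and for 4.38% of the 27305 genes with a window. It was present in 2 of 3 upregulated members with a window, in 3 of 5 downregulated members and in 15 of 22 that were not called, so its presence did not sort the members by direction. The stretches below show the core in members that went up, went down or were not called. IFI44 is taken from chr1:78649751-78649788 and IFI44L from chr1:78620264-78620404, both on the plus strand and both upregulated. OAS3 is taken from chr12:112938442-112938473 (plus strand), ISG20 from chr15:88638927-88638976 (plus strand) and DDX60 from chr4:168318776-168318860 (minus strand), all downregulated. IFIT3, from chr10:89327821-89327904, and ISG15, from chr1:1013364-1013419, both on the plus strand, were not called. Each is written 5′ to 3′ on the strand of the gene, capitals mark the core, and the cores of ISG15 overlap.
IFI44: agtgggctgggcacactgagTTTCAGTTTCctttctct
IFI44L: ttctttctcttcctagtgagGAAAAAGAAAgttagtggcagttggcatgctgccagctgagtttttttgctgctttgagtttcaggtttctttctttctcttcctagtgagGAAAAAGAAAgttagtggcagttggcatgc
OAS3: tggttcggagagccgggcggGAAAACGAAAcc
ISG20: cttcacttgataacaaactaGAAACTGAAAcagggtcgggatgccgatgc
DDX60: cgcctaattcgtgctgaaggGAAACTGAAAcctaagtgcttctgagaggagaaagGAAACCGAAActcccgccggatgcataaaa
IFIT3: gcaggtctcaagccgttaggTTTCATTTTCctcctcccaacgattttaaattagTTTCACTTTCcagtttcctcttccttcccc
ISG15: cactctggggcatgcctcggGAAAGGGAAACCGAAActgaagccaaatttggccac
Counted from the gene start, the core shown begins at -18 in IFI44, at -12 in OAS3 and at -69 in ISG20. OAS3 has another core farther upstream, and another window of IFI44 also holds a core. In IFI44L a stretch that holds the core occurs at -164 and again at -73. RIGI, STAT2 and OAS1, which were called, had no such core in their windows. Only this exact spelling was searched, so a response element with another spacing or outside the window would have been missed.

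Among the sensors and adaptors (7 members, all tested), RIGI rose, DDX60 fell and 5 were not called. RIGI encodes RIG-I, the helicase that binds short duplex RNA with a triphosphate end. It had 44.2, 42.8 and 43.0 CPM in the NC libraries and 86.4, 70.8 and 75.7 CPM in the si-EIF5A2 libraries. All 3 NC libraries were nearly equal and each knockdown library lay well above them, with a log2 fold change of 0.84 (SE 0.09, adjusted p = 0.000311, edgeR), which is 1.79-fold. DDX60, a helicase described as a partner of RIG-I, had CPM values of 8.39, 10.5 and 8.91 in NC and of 5.22, 6.26 and 6.23 in si-EIF5A2. The groups did not overlap, and DDX60 fell by 0.65 on the log2 scale (SE 0.15, adjusted p = 0.0122, edgeR). Its change passed the fold limit narrowly and missed it without NC replicate 2 (-0.55) or without si-EIF5A2 replicate 1 (-0.57). TRIM25, the ubiquitin ligase that acts on RIG-I, had the highest level of the sensors at 33.6 ± 0.816 per kb in NC (SD, n = 3). It had CPM values of 313, 328 and 317 in NC and of 337, 348 and 328 in si-EIF5A2, so that the groups met at their edges, and its log2 fold change was 0.08 with a 95% interval of -0.07 to 0.23. MAVS, the mitochondrial adaptor through which RIG-I and MDA5 signal, had a log2 fold change of -0.10 (interval -0.27 to 0.08). For IFIH1, which encodes MDA5, the sensor of long duplexes, it was 0.25 (-0.16 to 0.66), and for DHX58, which encodes the helicase LGP2, -0.30 (-0.83 to 0.22). TLR3, the endosomal receptor of double-stranded RNA, stood at 0.35 (-0.24 to 0.95).

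The enzymes that bind double-stranded RNA, ADAR and EIF2AK2, were not called. ADAR, which edits adenosine to inosine in duplex RNA, had CPM values of 110, 120 and 174 in NC and of 121, 107 and 149 in si-EIF5A2. NC replicate 3 and si-EIF5A2 replicate 3 were the high libraries of their groups and the ranges overlapped. The log2 fold change was -0.10 (interval -0.59 to 0.39), and it was 0.12 without NC replicate 3. EIF2AK2 encodes PKR, the kinase that phosphorylates the initiation factor eIF2 on binding duplex RNA. It went from 34.6 ± 1.01 to 30.3 ± 1.28 CPM (SD, n = 3), a log2 fold change of -0.19 (SE 0.08, adjusted p = 0.121, edgeR), although the groups did not overlap.

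Of the 5 transcription factors, STAT2 was called and the 4 interferon regulatory factors were not. STAT2, the partner of IRF9 in the complex that binds the response element, had CPM values of 21.4, 22.7 and 18.8 in NC and of 8.53, 8.30 and 11.1 in si-EIF5A2. Its highest knockdown library was still well under its lowest control library. STAT2 fell by 1.17 on the log2 scale (SE 0.15, adjusted p = 0.000648, edgeR), to 44.5% of the NC level. IRF9, its DNA-binding partner, moved the other way without passing the test, with CPM values of 6.04, 3.33 and 3.30 in NC and of 8.37, 5.27 and 4.59 in si-EIF5A2. Replicate 1 was high in both groups, the ranges overlapped, and the log2 fold change was 0.52 (adjusted p = 0.255, edgeR). IRF9 shares 1838 exon bases with AL136295.5 on the same strand, so its counts are less certain. IRF3, the factor activated directly by the sensors, had the highest level of these genes at 8.88 ± 2.37 per kb in NC. Its CPM values were 43.9, 26.9 and 30.3 in NC and 25.4, 39.2 and 36.2 in si-EIF5A2. The groups covered the same range, and the log2 fold change was -0.01 (interval -0.56 to 0.54), a value so near 0 that its sign turned under RLE or library-size scaling. IRF7, the interferon-induced amplifier of the response, was at 5.58 ± 1.11 CPM in NC, compared with 7.57 ± 0.657 CPM in si-EIF5A2 (log2 fold change 0.44, adjusted p = 0.104, edgeR). IRF1 was at 42.2 ± 2.96 and 35.5 ± 2.14 CPM (log2 fold change -0.25, adjusted p = 0.0730, edgeR), and 2185 of its exon bases are covered by genes on the opposite strand. Neither IRF7 nor IRF1 overlapped between groups, but neither passed the adjusted test.

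The modifiers are ISG15, a ubiquitin-like protein, the enzymes grouped with it (USP18, HERC5 and HERC6), and PARP9, which belongs to ADP-ribosylation. ISG15 was the most abundant at 70.6 ± 16.9 per kb in NC. It had CPM values of 83.7, 62.9 and 52.6 in NC and of 51.5, 60.8 and 54.0 in si-EIF5A2. The spread within NC was as wide as the gap between groups, and the log2 fold change was -0.26 (interval -0.65 to 0.13). USP18, which removes ISG15 from proteins and restrains signalling at IFNAR2, had CPM values of 4.92, 3.77 and 2.66 in NC and of 7.24, 6.34 and 7.19 in si-EIF5A2. All knockdown libraries were above all control libraries, and USP18 was upregulated with a log2 fold change of 0.87 (SE 0.23, adjusted p = 0.0204, edgeR). This call was lost without NC replicate 2 (adjusted p = 0.0587, edgeR), si-EIF5A2 replicate 1 (0.0612) or si-EIF5A2 replicate 3 (0.0573), and over the 14 alternatives the adjusted p ran from 0.00635 to 0.0612. HERC5, the main ISG15 ligase, had 90, 81 and 80 counts in NC and 32, 4 and 4 counts in si-EIF5A2, which for the last 2 libraries is about 1 fragment each. The knockdown libraries were all lower, but si-EIF5A2 replicate 1 stood apart from the other 2, and the log2 fold change of -2.36 (SE 0.80) just missed the threshold (adjusted p = 0.0513, edgeR). Without si-EIF5A2 replicate 1 it was -4.06 (adjusted p = 0.00180, edgeR), and over the 13 alternatives that gave a value the adjusted p ran from 0.00180 to 0.129. HERC6, a relative of HERC5 next to it on chromosome 4, had a log2 fold change of -0.16 (interval -0.52 to 0.21), and PARP9, an ADP-ribosyltransferase family member, of 0.06 (interval -0.27 to 0.39).

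**Figure D2:**
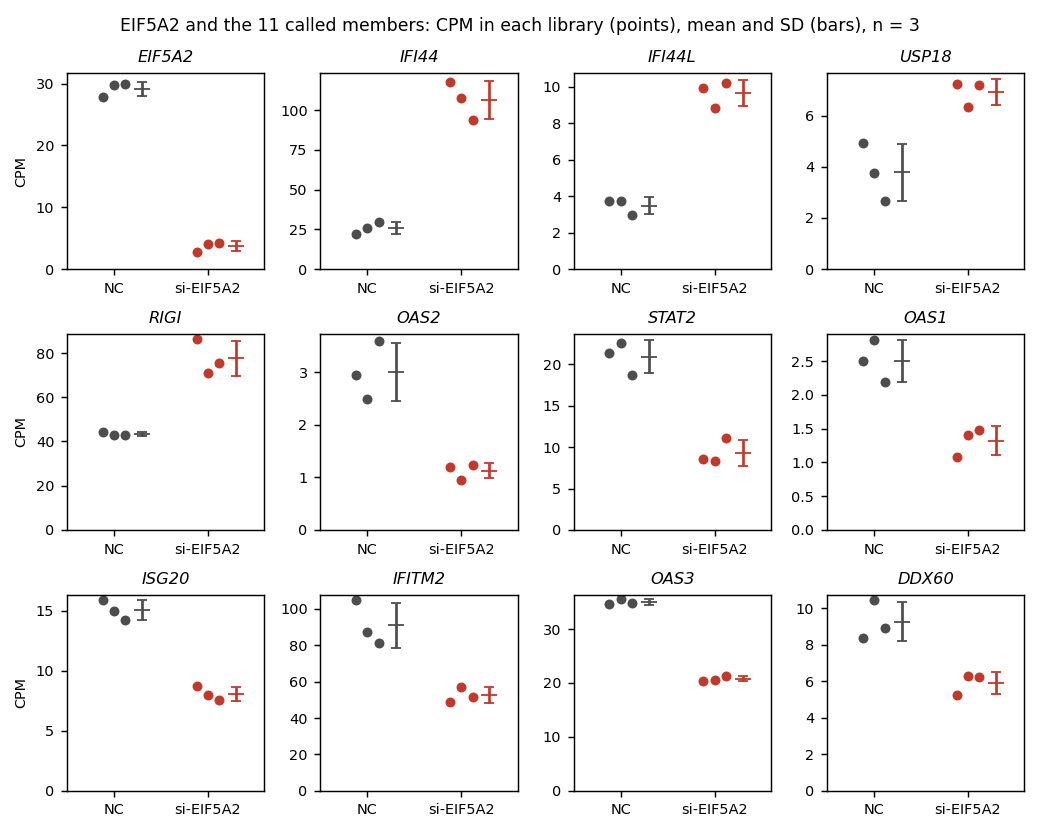
CPM (vertical axes, from 0) of EIF5A2 and of the 11 called members in each of the 3 NC and 3 si-EIF5A2 libraries, with the mean and SD beside the points. In each panel the groups do not overlap, and the change of IFI44, from 25.8 to 106.5 CPM on average, is the largest of the members in CPM.

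The effectors are the largest role, with 21 members of which 20 were tested, 2 rose, 5 fell and 13 were not called. IFI44 and IFI44L, neighbouring genes on chromosome 1 (78649796 to 78664078 and 78619922 to 78646145, GENCODE release 29, GRCh38), gave the largest rises of the module. IFI44, a GTPase-like protein of the antiviral response, had CPM values of 21.9, 25.6 and 29.9 in NC and of 117.9, 107.5 and 94.1 in si-EIF5A2. The lowest knockdown library was far above the highest control, with a log2 fold change of 2.05 (SE 0.14, adjusted p = 2.67e-05, edgeR). IFI44L, its paralog, had CPM values of 3.71, 3.75 and 2.94 in NC and of 9.94, 8.85 and 10.2 in si-EIF5A2. It rose too in every knockdown library, by 2.78-fold (log2 fold change 1.47, SE 0.16, adjusted p = 0.000275, edgeR). The level per length was different in the paralogs, 12.7 ± 1.97 per kb for IFI44 and 0.339 ± 0.0451 per kb for IFI44L in NC (SD, n = 3).

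The oligoadenylate synthetases, which on binding double-stranded RNA make the messenger that activates RNase L, fell together. OAS1, OAS3 and OAS2 lie side by side on chromosome 12, between 112906777 and 113011723. OAS3, the largest enzyme, had CPM values of 34.7, 35.6 and 34.8 in NC and of 20.4, 20.6 and 21.3 in si-EIF5A2. Libraries of a group hardly differed from each other, and OAS3 fell by 0.75 on the log2 scale (SE 0.08, adjusted p = 0.000276, edgeR), to 59.4% of the NC level. OAS2 had CPM values of 2.95, 2.48 and 3.59 in NC and of 1.19, 0.958 and 1.23 in si-EIF5A2. It fell by 1.41 on the log2 scale (SE 0.25, adjusted p = 0.00337, edgeR), the strongest fall among the called members, with no overlap between groups. OAS1 had CPM values of 2.51, 2.81 and 2.19 in NC and of 1.08, 1.40 and 1.48 in si-EIF5A2. The groups were apart, and OAS1 fell by 0.93 on the log2 scale (SE 0.25, adjusted p = 0.0217, edgeR). Its call was lost without NC replicate 1 (adjusted p = 0.0576, edgeR), NC replicate 2 (0.0858) or si-EIF5A2 replicate 1 (0.0611), and over the 14 alternatives the adjusted p ran from 0.0161 to 0.0858. OASL, the family member at 121019111 to 121039242 on the same chromosome, has no synthetase activity and acts on RIG-I. It had CPM values of 44.8, 48.7 and 41.6 in NC and of 73.8, 65.4 and 54.8 in si-EIF5A2. Every knockdown library was higher, but the log2 fold change of 0.52 (SE 0.12, adjusted p = 0.0117, edgeR) stayed under the fold limit, which it passed only without si-EIF5A2 replicate 3 (0.62).

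The interferon-induced transmembrane proteins, which hinder the entry of viruses through cell membranes, lie close together on chromosome 11 and differed among themselves. IFITM3 had the highest level of the whole module, 231.5 ± 33.3 per kb in NC (SD, n = 3). It had CPM values of 364, 289 and 283 in NC and of 305, 490 and 329 in si-EIF5A2. Without the high si-EIF5A2 replicate 2 its log2 fold change of 0.26 (interval -0.22 to 0.75) came to 0.02, and the groups overlapped. IFITM2 had CPM values of 104.9, 87.1 and 81.1 in NC and of 48.5, 57.2 and 51.7 in si-EIF5A2. No knockdown library came near the controls, and IFITM2 fell by 0.79 on the log2 scale (SE 0.12, adjusted p = 0.00123, edgeR). IFITM1 was low at 2.03 ± 0.586 CPM in NC, compared with 1.46 ± 0.521 CPM in si-EIF5A2 (log2 fold change -0.47, interval -1.31 to 0.36). IFITM1 and IFITM2 share 351 exon bases on the same strand, and the 3 genes are near-identical in part, so the split of reads among them is uncertain. ISG20, an exonuclease that degrades RNA, had CPM values of 15.9, 14.99 and 14.3 in NC and of 8.74, 7.95 and 7.57 in si-EIF5A2. All knockdown libraries were lower by a similar amount, and ISG20 fell by 0.90 on the log2 scale (SE 0.12, adjusted p = 0.000796, edgeR), to 53.7% of the NC level.

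None of the 4 IFIT genes on chromosome 10, whose products bind viral RNA ends or form complexes with those that do, was called. IFIT1, which recognises RNA that lacks the methylation of the host cap, had CPM values of 35.6, 40.3 and 42.9 in NC and of 26.6, 26.4 and 26.8 in si-EIF5A2. The knockdown libraries were all lower and nearly equal, and the log2 fold change of -0.57 (SE 0.10, adjusted p = 0.00246, edgeR) passed the adjusted p but stayed just inside the fold limit, which it passed with upper-quartile scaling (-0.59), with no filter on low counts (-0.60) and without NC replicate 1 (-0.65). IFIT3, the binding partner that stabilises IFIT1, was at 78.8 ± 6.21 and 77.2 ± 7.14 CPM (log2 fold change -0.03, interval -0.26 to 0.20). IFIT2 had a log2 fold change of 0.21 (interval from just under 0 to 0.41) and IFIT5 of 0.01 (interval -0.31 to 0.32), whose sign turned with upper-quartile scaling. IFIT2 shares 356 exon bases with AL353751.1 on the same strand. The remaining effectors showed no change that passed the test. MX1, the dynamin-like GTPase, had a log2 fold change of 0.10 (interval -0.42 to 0.63), IFI35 of 0.11 (-0.21 to 0.43) and IFI6 of -0.12 (-0.60 to 0.35). MX2, the other dynamin-like GTPase of the module, lay at 0.539 ± 0.277 CPM in NC, compared with 0.217 ± 0.0792 CPM in si-EIF5A2 (log2 fold change -1.30, interval -2.84 to 0.24). IFI27 stayed below 1 CPM in every library (log2 fold change 0.16, interval -1.02 to 1.35). BST2, or tetherin, which holds budding virus at the cell surface, had only 10, 19 and 11 counts in NC and 12, 27 and 0 counts in si-EIF5A2, and no direction was detectable at this depth (log2 fold change 0.24, interval -2.35 to 2.84). XAF1, a pro-apoptotic protein, was the member that could not be tested, with 4 counts in NC replicate 3 and 0 in the other 5 libraries. A gene listed at 0 may still have had as many as 3 fragments, or between 0.152 and 0.236 CPM depending on the depth of the library, by counting error alone.

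Altogether 28 of the tested members were not called. In 11 of these (IFIT2, IFIT3, IFIT5, IFI35, IRF1, IRF3, MAVS, TRIM25, HERC6, EIF2AK2 and PARP9) the whole 95% interval of the fitted change lay inside the 1.5-fold limits. The others had intervals that reach past a limit, so a change of that size is neither shown nor excluded for them. Abundance did not separate the calls, since 6 of the 22 members with an NC mean of at least 10 CPM were called and 5 of the 17 below it. Counts of members whose exons are covered by genes on the opposite strand are less certain, since strandedness is not given, and besides IRF1 these were XAF1 (2535 bases), IRF3 (734), TRIM25 (618), EIF2AK2 (436), IFITM3 (287), MX1 (236), PARP9 (217), OAS1 (92), IFIT2 (65) and ISG15 (36). Over the module, NC levels ran from 0.0413 per kb for MX2 to 231.5 per kb for IFITM3.

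**Figure D3:**
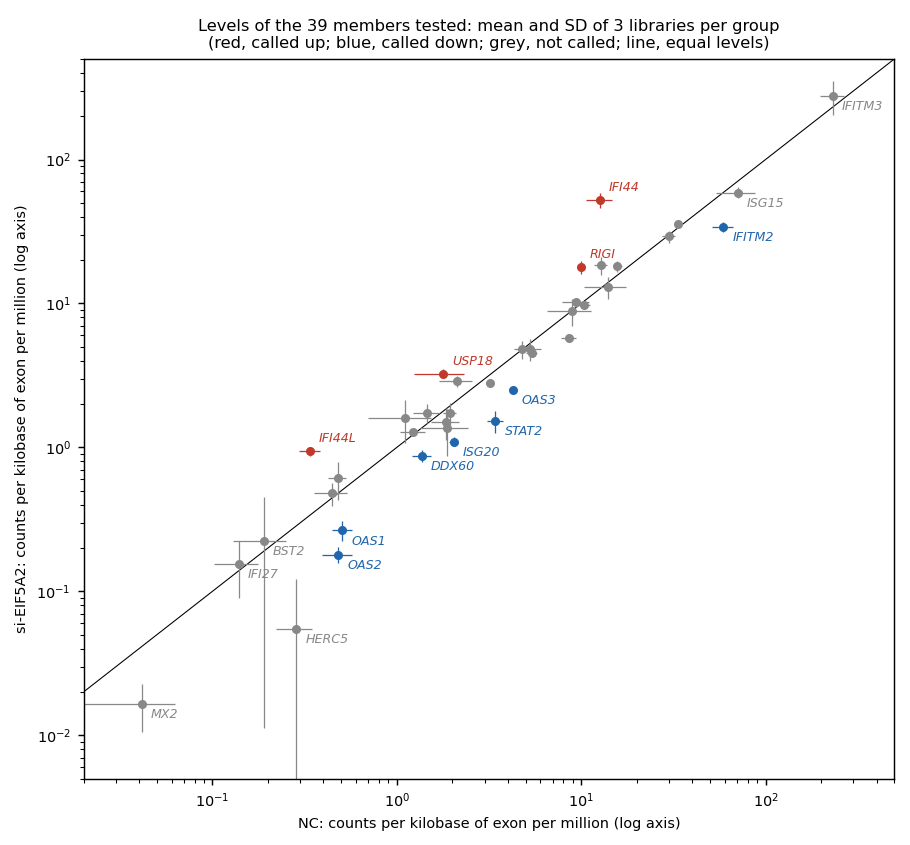
Mean level of the 39 members tested in NC (horizontal) and si-EIF5A2 (vertical), in CPM per kilobase of exon on log axes, with the SD of 3 libraries as lines and equal levels on the diagonal. IFITM3 lies highest at 231.5 per kb in NC, IFI44 stands farthest above the line among abundant members, and the lines of the low members HERC5, BST2 and MX2 are among the longest, with that of HERC5 running off the vertical axis.

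Ratios of related genes within a library do not depend on the library size, and 14 pairs, chosen after the values of the genes had been seen, were compared. In 11 of the 14 the ratios of the groups did not overlap, each with an exact permutation p of 0.10, 2-sided, and 0.127 after Benjamini-Hochberg adjustment over the 14, so none could pass 0.05 with 3 against 3 libraries. As the pairs were chosen for values already described, their ratios restate those values. For STAT2 and IRF9, of which IRF9 itself did not pass the test, STAT2 counts were 5.34 ± 1.66 times those of IRF9 in NC and 1.67 ± 0.709 times in si-EIF5A2 (SD, n = 3). RIGI counts were 5.92 ± 0.792 times those of IFIH1 in NC and 8.83 ± 0.737 times in si-EIF5A2. The ratio of DDX60 to RIGI went from 0.214 ± 0.0278 to 0.0771 ± 0.0148. Within the OAS family, the ratio of OASL to OAS3 went from 1.29 ± 0.0859 to 3.12 ± 0.524, whereas that of OAS1 to OAS3 overlapped between groups, at 0.0714 ± 0.00806 and 0.0633 ± 0.00924 (exact permutation p = 0.40). OAS2 counts relative to OAS3 went from 0.0860 ± 0.0167 in NC to 0.0542 ± 0.00670 in si-EIF5A2, without overlap between groups. The ratio of IFITM2 to IFITM3 was 0.292 ± 0.00811 in NC and 0.144 ± 0.0238 in si-EIF5A2, and that of USP18 to ISG15 was 0.0564 ± 0.00513 and 0.126 ± 0.0191. IFI44 counts were 0.326 ± 0.0296 times those of IFIT3 in NC and 1.38 ± 0.0822 times in si-EIF5A2, so the order of these effectors was turned around in count.

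**Figure D4:**
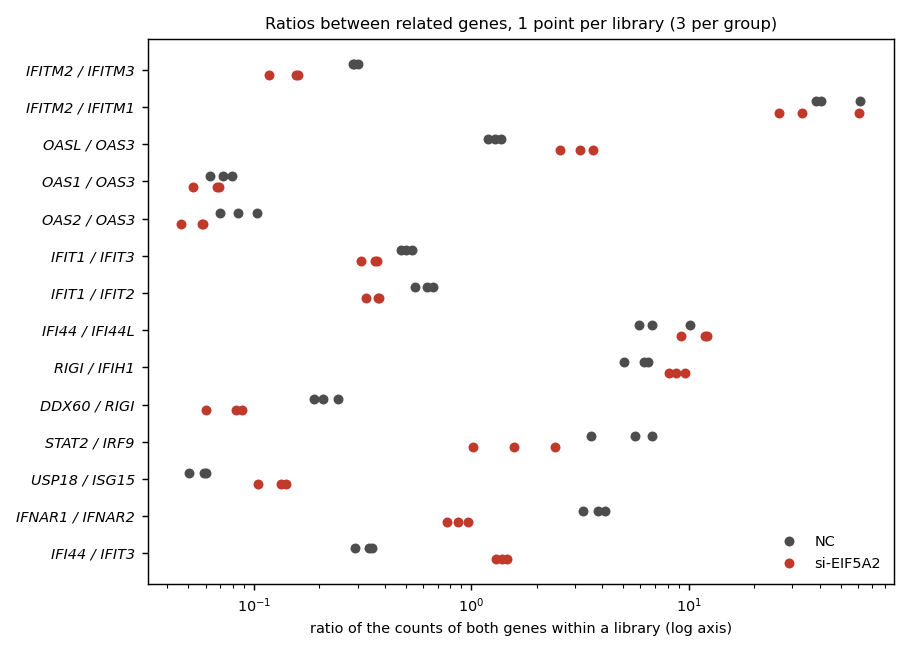
Ratio of the counts of related genes within a library (horizontal log axis), 1 point per library, with NC in grey and si-EIF5A2 in red. The groups are apart in 11 of 14 pairs and overlap for IFITM2 over IFITM1, OAS1 over OAS3 and IFI44 over IFI44L.

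Upstream of the module, 21 interferons, interferon receptors, Janus kinases and their regulators were listed, and 14 could be tested. Of these 6 rose and 1 fell (7 of 14 called, with 24.6% of all genes as background), and the median log2 fold change was 0.28. IFNAR1, 1 chain of the type I interferon receptor, had CPM values of 39.1, 45.8 and 33.5 in NC and of 20.3, 21.0 and 20.7 in si-EIF5A2, and fell by 0.93 on the log2 scale (adjusted p = 0.000710, edgeR). IFNAR2, the other chain, had CPM values of 9.51, 14.0 and 8.72 in NC and of 26.2, 24.2 and 21.4 in si-EIF5A2, and rose by 1.15 (adjusted p = 0.00223, edgeR). Both chains were thus changed in every knockdown library, in opposite directions, and the ratio of IFNAR1 to IFNAR2 counts went from 3.74 ± 0.425 to 0.871 ± 0.0983 (exact permutation p = 0.10). Of the 4614 exon bases of IFNAR2, 2038 are shared with AP000295.1 on the same strand and 1803 with IL10RB-DT on the opposite strand, and IL10RB shares 1732 with AP000295.1, so the counts of both genes and this ratio are less certain. STAT3, a transcription factor of cytokine signalling, rose by 1.24 on the log2 scale, and IFNGR2, a chain of the interferon gamma receptor, by 0.93. SOCS3, an inhibitor of Janus kinase signalling, the receptor chain IFNGR1 and IL10RB, shared by the receptors of type III interferon and interleukin 10, also rose. JAK1, a kinase of these receptors, was higher at less than 1.5-fold (0.28, adjusted p = 0.0159, edgeR). IFNB1, the type I interferon that many cells make first, had 63, 46 and 31 counts in NC and 48, 47 and 38 counts in si-EIF5A2, with no difference detectable at this depth (log2 fold change 0.27, interval -0.56 to 1.11). IFNA1, IFNE, IFNK, IFNL2, IFNL3 and IFNG were at 0 counts in all 6 libraries.

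Of 32 other nucleic acid sensors, adaptors and kinases, 28 were tested, 5 rose and 2 fell (7 of 28 called, a share at the background of 24.6%, median log2 fold change 0.07). STING1, the adaptor of the DNA sensing pathway, had CPM values of 71.1, 69.4 and 63.7 in NC and of 21.4, 18.3 and 18.7 in si-EIF5A2. It was lower in every knockdown library and fell by 1.80 on the log2 scale (SE 0.10, adjusted p = 1.18e-05, edgeR). CGAS, the DNA sensor that makes the ligand of STING, rose by 0.69, in the opposite direction. TRAF3, an adaptor between MAVS and the kinases, rose by 0.97, and NLRC5, a regulator of MHC class I genes, fell by 0.94. TBK1, the kinase that activates IRF3, rose, and so did TICAM1, the adaptor of TLR3, and MYD88, the adaptor of other Toll-like receptors. A further 47 interferon-stimulated genes outside the module gave 42 tested, of which 5 rose and 3 fell (8 of 42 called, or 19.0%, which is below the background of 24.6%, median 0.09). OGFR, the opioid growth factor receptor gene, rose by 2.20 on the log2 scale and TRIM14, an adaptor at MAVS, fell by 1.62. The guanylate-binding proteins GBP1 (0.91) and GBP3 and the chemokine CCL5 (0.90) rose, as did TRIM21, an antibody receptor in the cytosol. PML, which forms nuclear bodies, and NUB1, a regulator of NEDD8, fell. Each of the 3 lists held genes called in both directions.

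**Figure D5:**
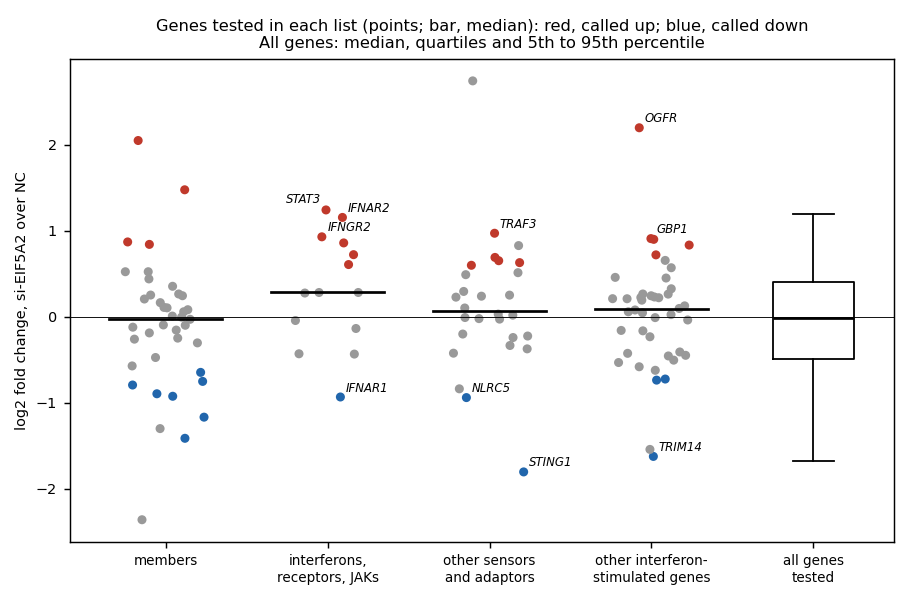
Log2 fold change of si-EIF5A2 over NC (vertical axis) for each gene tested in the module and in the 3 other lists, with called genes in red (up) and blue (down) and a bar at the median, beside the median, quartiles and 5th to 95th percentiles of all genes tested. The medians are -0.03, 0.28, 0.07 and 0.09 from left to right, and each list holds genes called in both directions.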

How the data were processed

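Paired-end mRNA libraries of 3 NC and 3 si-EIF5A2 samples were sequenced. The values deposited by the authors are estimated counts per gene, not normalized, made with StringTie and ballgown. The aligner, genome build and annotation used for them are not given in the paper, and the submitters' processing notes name Bowtie 0.12.2 with mouse builds, which cannot apply to human identifiers. Strandedness is not given in the sources used here, so reads of genes that overlap on opposite strands could not be told apart. StringTie shares fragments between overlapping transcripts. Groups came from the treatment label, and 0 columns were left out.

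The members and gene lists were chosen with earlier results of these data known. All genes were fitted together with edgeR 4.0.16 (R 4.3.3): filterByExpr, TMM, robust quasi-likelihood test on condition, Benjamini-Hochberg adjustment over 16208 genes. The deposited estimated counts were whole numbers, so rounding changed nothing. A total of 58817 identifiers had a symbol and 58552 were in GENCODE release 29, which gave positions, exon lengths and overlaps. SE is the log2 fold change over the root of the F statistic. The named genes are EIF5A2, all members, with values per library for called members and the most abundant of each role, and every called gene of the other lists, with values for the 4 largest. Values per library or genes outside this rule (IRF9, OASL, IFIT1, HERC5, BST2, XAF1, IFNB1, JAK1 and those at 0) were added after the values were seen. The depth in fragments is known only through the step of 3.69 counts, and limits at 0 cover counting error only, whereas intervals of fold changes come from the edgeR fit. DESeq2 1.42.0, RLE, upper-quartile and library-size scaling, other filters, a replicate block, counts divided by their step, other thresholds and leaving out each library were the alternatives. Scripts were tested on simulated counts. Promoters were read from RefSeq. Some items are not reported here.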

Additional observations from a re-analysis of the deposited data

How the results depend on the processing

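EIF5A2 and the calls of IFI44, IFI44L, RIGI, OAS2, OAS3, STAT2, ISG20 and IFITM2 kept their direction and their side of the threshold under the 14 refits (another tool, scaling, filter or count scale, the replicate block, and each library left out). EIF5A2 ranged from -3.10 to -2.82 on the log2 scale when a library was left out. Member counts then ranged from 3 to 4 up and from 5 to 7 down, and the member median from -0.11 to -0.0035. Under an unadjusted p under 0.05 with a fold over 2, 2 members were up and 3 down, and the upstream, sensor and other interferon-stimulated lists had 2, 2 and 3 calls in place of 7, 7 and 8. With no fold limit the last list had 13. The median of the members was -0.094 with no filter on low counts.

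The replicate number as a block gave a member median of -0.084 and lost OAS1 (adjusted p = 0.0542, edgeR's quasi-likelihood test). Deviations of samples with the same number correlated across genes at -0.024, 0.0052 and -0.0027, so no shared deviation was seen. Whether libraries with the same number were prepared together is not given, and these values cannot decide it. In the block fit BST2 was at -0.29 and IRF3 at 0.0067.

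Signs near 0 turned. IRF3 was at 0.0043 with RLE scaling and 0.0048 with library size only. IFIT5 was at -0.0059 with upper-quartile scaling, -0.024 with no filter and -0.0041 with at least 10 counts in every library. When a library was left out, the range was -0.24 to 0.12 for ADAR, -0.83 to 0.81 for BST2, -0.15 to 0.45 for IFI27, -0.0035 to 0.24 for IFI35, -0.23 to 0.0072 for IFI6, -0.12 to 0.028 for IFIT3, -0.11 to 0.10 for IFIT5, -0.15 to 0.23 for IRF3, -0.056 to 0.27 for MX1 and -0.043 to 0.17 for PARP9. HERC5 passed the threshold under 6 of 13 alternatives. Over the 39 members, 498 of the refitted values kept direction and side of the threshold, 9 lost and 10 gained a call, and 23 turned sign. The cause was not tested in these cases. No value was available for MX2, HERC5, BST2 or IFI27 where a stricter filter removed them. Depth limits the genes below about 1 CPM, where a few fragments decide the value.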
